A study of Caenorhabditis elegans with 6 samples.

Results

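The respiratory chain and the ATP synthase of Caenorhabditis elegans were described through 47 genes, taken by name from the array's platform annotation among 17118 genes named on the array. The names were those of nuclear genes for subunits of complexes I to V, cytochrome c and assembly factors of complex IV. They matched 65 probe sets, each with 1 gene symbol, and each gene was represented by its probe set with the highest mean intensity. Genes were matched by name and not by a measured value, but the list was drawn up with earlier results of these data known. Measured intensity entered in the choice of the probe set.

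Total RNA was measured on Affymetrix expression arrays, 3 from worms labelled as an ung-1 mutant and 3 from wild type N2, the standard laboratory strain. Uracil-DNA glycosylase, the product of ung-1, removes uracil from DNA. The allele, the developmental stage, the tissue, the culture conditions and any treatment are not given in the labels, and the design text speaks of RNAi mutants where the sample labels speak of a mutant. The labels call the arrays biological replicates without saying how cultures were separated, so p-values measure only the spread between these samples.

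The respiratory chain passes electrons from NADH, through complex I, and from succinate, through complex II, to ubiquinone, then through complex III and cytochrome c to oxygen at complex IV. Complexes I, III and IV move protons across the inner mitochondrial membrane, and the ATP synthase, complex V, uses their return to make ATP. In C. elegans, mutants of several of these genes are known for altered lifespan, oxygen sensitivity or slow development, and the germline holds a large part of the animal's mitochondrial DNA. In RNA from bulk samples, fewer cells of a type and less RNA per cell cannot be told apart.

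Intensities of probe sets are in arbitrary units, and values listed for a gene follow the order of replicates 1, 2 and 3 in each genotype. A log2 fold change is the mutant mean minus the N2 mean of log2(intensity + 16), fitted with limma over all 22548 probe sets, with n = 3 in each group and Benjamini-Hochberg adjustment over all of them. The threshold is an adjusted p of 0.05. The ung-1 probe set gave 54.9, 55.3 and 47.7 in the mutant and 236, 254 and 296 in N2, with no overlap and a log2 fold change of -2.01 (SE 0.15), lower in the arrays labelled mutant. Its limma adjusted p was 0.0765, which missed the threshold. Array medians ran from 153 to 168. The 47 genes together made up 0.896% to 1.15% of the summed intensity of an array.

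None of the 47 genes differed between the mutant and N2 past the threshold, and over all probe sets the share called was 0.0%. The limma adjusted p was at least 0.999 for each of the 47. At an unadjusted p of 0.05 the count was also 0 of 47, where 1.93% of all probe sets passed, and an ordinary equal-variance model gave 1 of 47, cox-10, at that level, where 2.51% of all probe sets passed. The smallest unadjusted limma p was 0.0649, for the complex II gene sdhb-1 (adjusted p 0.999). The median log2 fold change of the 47 genes was 0.039, with 26 genes positive and 21 negative, beside -0.028 over all probe sets. A positive fold change was found in 55.3% of the 47 genes and in 41.7% of all genes of the array. Fold changes ran from -0.65 for nuo-5 to 0.59 for ucr-1.

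The genotypes overlapped in 44 of the 47 genes. All 3 mutant arrays lay on one side of the N2 arrays in sdhb-1, ucr-2.2 and cox-10, which is 6.38% of the genes, where 6.69% of all probe sets were apart in the same way. The share among these genes is thus near the background. For 36 of the 47 genes the 95% confidence interval lay within a change of 2-fold in either direction. In the other 11, a change of more than 2-fold in one direction lay within the interval. The median within-group SD was 0.378 on the log2 scale, beside 0.377 for 1472 genes of the array with a mean between the quartiles of these genes.

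**Figure D1:**
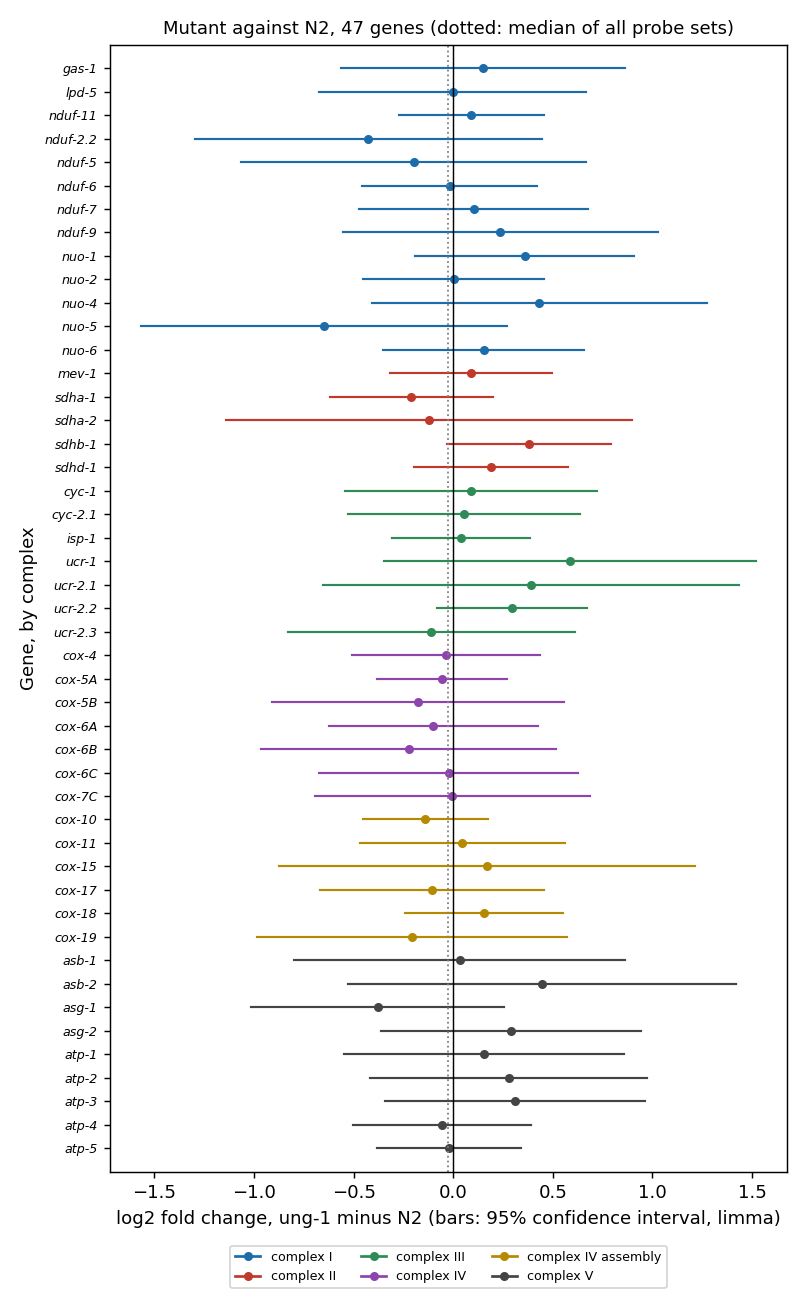
Log2 fold change (mutant minus N2, horizontal axis) of each of the 47 genes (vertical axis, coloured by complex), as points with 95% confidence intervals from limma, 3 arrays per genotype. Every interval includes 0, and the dotted line marks the median of all probe sets, -0.028.

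The median of the 47 genes varied between arrays of one genotype with an SD of 0.184 on the log2 scale, more than the 0.039 between the genotypes. Mutant replicate 2 held the highest value of 24 of the 47 genes (51.1%), and N2 replicate 2 held that of 15 (31.9%). Over all genes of the array, these arrays held the highest value of 14.5% and 33.2%, and over the 1472 genes of like intensity 25.5% and 24.3%. The lowest value fell on mutant replicate 3 in 17 genes and on N2 replicate 3 in 15, which is 36.2% and 31.9%, beside 28.9% and 10.4% of all genes of the array. High and low arrays were therefore found in both genotypes. Relative to each gene's mean over the 6 arrays, the median of the 47 genes stood at 0.03, 0.27 and -0.16 on mutant replicates 1, 2 and 3. It stood at 0.027, 0.10 and -0.18 on those of N2, on the log2 scale.

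The high level of mutant replicate 2 decided the sign of several values. Without that array the median fold change of the 47 genes was -0.068, and without mutant replicate 3 it was 0.12. It was -0.0077 without N2 replicate 3 and -0.022 over the 27 genes with a probe set whose identifier marks a match to 1 transcript. With both replicates numbered 2 left out it was -0.021, with 0 of 47 genes past an unadjusted p of 0.05. Mutant replicate 2 had the lowest ratio of 3' to 5' control probe sets, a sign of RNA integrity, in each of 4 controls. The ratio there was 5.01 for GAPDH, where the other 5 arrays ran from 6.08 to 11.8, and 2.89 for actin, where they ran from 3.13 to 5.23. For ubiquitin and catalase it was close to that of mutant replicate 1, at 3.95 against 3.97 and 25.9 against 26.2. N2 replicate 2 had the highest ratio for actin and for ubiquitin, 5.23 and 5.32, but the lowest of the N2 arrays for GAPDH and for catalase, 8.3 and 28.3. The mean ratio was lower in the mutant than in N2 for each of the 4 controls. It was 6.62 against 10.2 for GAPDH, 3.49 against 4.53 for actin, 4.11 against 4.92 for ubiquitin and 28.1 against 29.3 for catalase. Two-sided exact permutation tests gave a p of 0.2, 0.2, 0.2 and 0.6, where the smallest possible p is 0.1. The part of RNA integrity in the array pattern and in the fold changes was not tested.

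**Figure D2:**
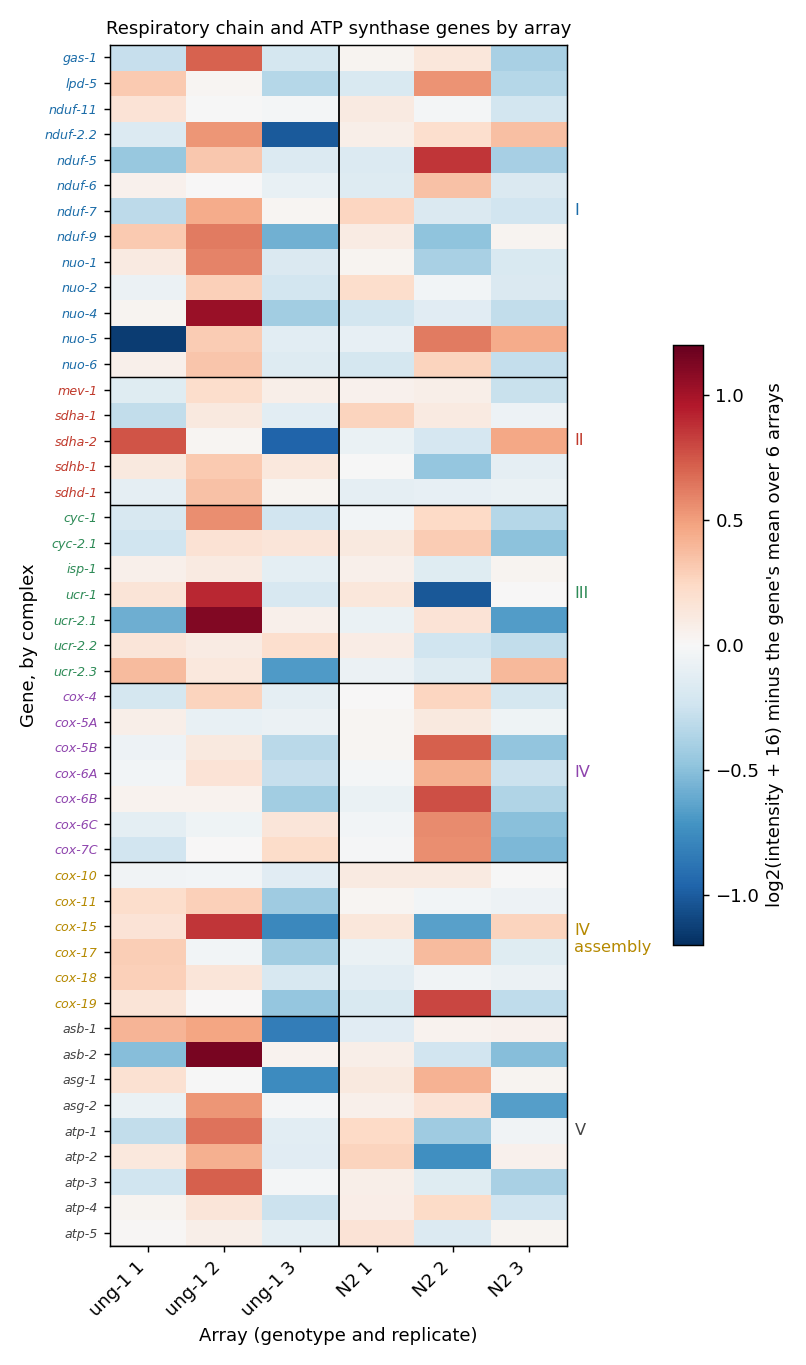
Heat map of the 47 genes (rows, grouped by complex) on the 6 arrays (columns, genotype and replicate), coloured by log2(intensity + 16) minus the gene's mean over the 6 arrays. The darkest red cells lie mostly on mutant replicate 2 and, for complex IV, on N2 replicate 2, and no block of rows separates the mutant from N2.

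Complexes I, II, III and V shared mutant replicate 2 as the array with the highest median deviation, and complex IV stood highest on N2 replicate 2. On N2 replicate 2 the 7 complex IV subunit genes stood at a median of 0.56 above their means and complex I at 0.13, while complexes II, III and V stood at -0.094, -0.15 and -0.14. On mutant replicate 2 the medians were 0.33, 0.21, 0.17, 0.043 and 0.47 for complexes I to V. The complex IV assembly factors were lowest on mutant replicate 3, at -0.42. Complexes I, III and IV were lowest on N2 replicate 3, at -0.22, -0.30 and -0.36.

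**Figure D3:**
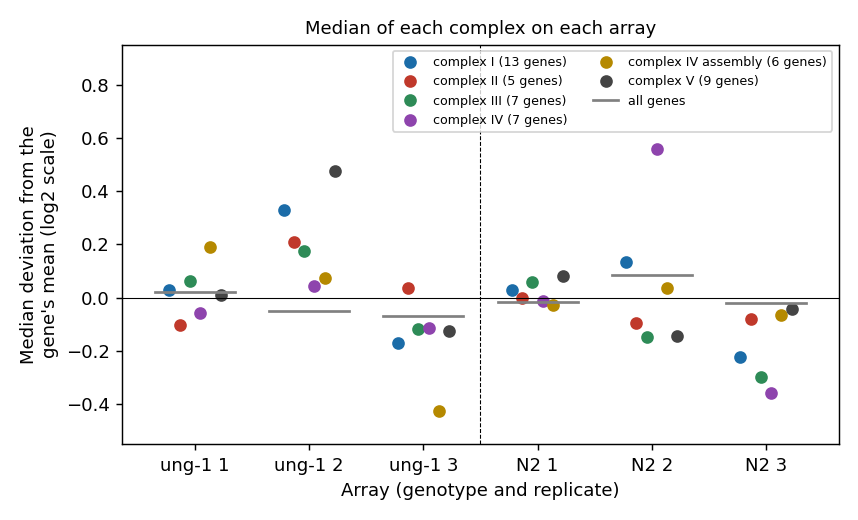
Median deviation of each complex (coloured points) from the mean of its genes over the 6 arrays, on the log2 scale, for each array on the horizontal axis, with the median of all genes as grey bars. Complex IV is highest on N2 replicate 2, at 0.56, and complex V on mutant replicate 2, at 0.47.

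Complex I takes electrons from NADH and was represented by 13 genes, of which 8 had a positive and 5 a negative fold change (median 0.091), none past the threshold. The sign of this median rested on single arrays, with -0.027 without mutant replicate 2 and -0.0077 without N2 replicate 3, and it was -0.018 over the 5 genes with a probe set whose identifier marks a match to 1 transcript. The gene nuo-5, for the large iron-sulfur subunit homologous to mammalian NDUFS1, gave 384, 1073 and 792 in the mutant and 809, 1345 and 1192 in N2. Its lowest value, on mutant replicate 1, lay far below the rest, and the genotypes overlapped. The log2 fold change came to -0.65 (SE 0.39, 95% confidence interval -1.57 to 0.27), and -0.24 without mutant replicate 1. A second, dimmer probe set of nuo-5 had the opposite sign, at 0.25.

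The flavoprotein gene nuo-1, whose product takes the electrons from NADH, gave 3948, 5535 and 3244 in the mutant and 3729, 2794 and 3222 in N2 and had a log2 fold change of 0.36 (SE 0.23). Its mutant and N2 values overlapped, with the highest on mutant replicate 2. The accessory subunit gene nuo-4 gave 1549.8, 3134 and 1131 in the mutant and 1299, 1379.9 and 1236 in N2, a log2 fold change of 0.43 (SE 0.35). This rested on mutant replicate 2, since without it the value was 0.022. The gene nuo-6, for a small accessory subunit whose partial loss is known to lengthen life in the worm, gave 1309, 1583 and 1125 in the mutant and 1086, 1518 and 1025 in N2. Its log2 fold change came to 0.15 (SE 0.21, 95% confidence interval -0.35 to 0.66), and the groups overlapped.

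The remaining complex I genes had fold changes from -0.43 to 0.24. Closest to 0 were nuo-2, for a core subunit, at 0.0022 (SE 0.19), and lpd-5, the homologue of the mammalian subunit gene NDUFS4, at -0.0027 (SE 0.28). The genes nduf-5, nduf-6 and lpd-5 had their highest value on N2 replicate 2, as nuo-5 did. For nduf-5 that value was 2003, where the other 5 arrays ran from 793 to 1378. Without mutant replicate 3, nduf-9 and nuo-4 passed an unadjusted p of 0.05 as higher in the mutant, together with asb-1 of complex V, where 3.69% of all probe sets passed in either direction. None of them passed after adjustment.

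Complex II, succinate dehydrogenase, links the tricarboxylic acid cycle to the chain and was represented by 5 genes with a median of 0.09 (3 positive, 2 negative). The iron-sulfur subunit gene sdhb-1 gave 2633, 3020.2 and 2648 in the mutant and 2417, 1748 and 2250.1 in N2. Every mutant array lay above every N2 array, by a margin of 2633 against 2417 at the nearest. The log2 fold change came to 0.38 (SE 0.17, 95% confidence interval -0.031 to 0.79), with an unadjusted limma p of 0.0649 and an adjusted p of 0.999, so that it did not pass. The second probe set of the gene had 0.34, and there the groups overlapped, with 1338, 2108 and 1435 in the mutant and 1459.8, 1021 and 1338 in N2. With an offset of 50 in place of 16, sdhb-1 passed an unadjusted p of 0.05, the only one of the 47 to do so at that offset, where 2.0% of all probe sets passed.

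The membrane anchor gene mev-1, whose mutant is known in the worm for oxygen sensitivity and short life, gave 1128, 1449 and 1319 in the mutant and 1301, 1318 and 1041 in N2. The groups overlapped, and the log2 fold change came to 0.09 (SE 0.17, 95% confidence interval -0.32 to 0.50). The other membrane anchor gene, sdhd-1, gave 772, 1064 and 851 in the mutant and 769.9, 777 and 784 in N2. Its N2 values were close together, mutant replicate 1 fell among them, and the log2 fold change was 0.19 (SE 0.16). The flavoprotein genes sdha-1 and sdha-2 are described with the paralogs.

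Complex III and cytochrome c were represented by 7 genes, 6 with a positive fold change and 1 with a negative one (median 0.091). The median was -0.02 without mutant replicate 2, 0.23 without mutant replicate 3 and 0.24 when the probe sets of each gene were averaged. The core protein gene ucr-1 gave 2434, 4104 and 1909 in the mutant and 2394, 1067 and 2185 in N2. Its N2 replicate 2 was the lowest and mutant replicate 2 the highest of the 6 arrays, and the rest overlapped. The log2 fold change, 0.59 (SE 0.39, 95% confidence interval -0.35 to 1.52), was the highest of the 47 genes. Leaving out mutant replicate 2 gave 0.28, leaving out N2 replicate 2 gave 0.22, and the value was -0.085 without both.

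The Rieske iron-sulfur gene isp-1, whose mutant is known in the worm for slow growth and long life, gave 12637, 13076 and 11154 in the mutant and 12606, 10904 and 12361 in N2, among the brightest of these probe sets. Its groups overlapped, with a log2 fold change of 0.039 (SE 0.15, 95% confidence interval -0.31 to 0.39). The cytochrome c1 gene cyc-1 gave 1990.3, 3366 and 1934 in the mutant and 2227, 2682 and 1795 in N2 and had 0.091 (SE 0.27), while its dimmer probe set had 0.38 and the mean of both 0.24. The cytochrome c gene cyc-2.1, whose product carries electrons to complex IV and which in other animals also takes part in apoptosis, gave 4805, 6403 and 6278 in the mutant and 6138, 6999.8 and 4021 in N2. Its highest value was on N2 replicate 2 and its lowest on N2 replicate 3, and the log2 fold change came to 0.053 (SE 0.24, 95% confidence interval -0.53 to 0.63). A change of more than 2-fold in either direction lay outside this interval.

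Complex IV, cytochrome c oxidase, reduces oxygen and was represented by 7 nuclear subunit genes, all with a negative fold change, from -0.22 for cox-6B to -0.0036 for cox-7C (median -0.057). Over all genes of the array, 9980 of 17118 had a negative fold change. The sign of the complex IV median rested on 1 array. N2 replicate 2 held the highest value of 6 of the 7 genes, and without it the median turned to 0.11. The median was also positive with array weights, at 0.041. The sign of cox-5A depended on the probe set, with -0.057 for the one used and 0.44 (SE 0.35) for a second, dimmer one. With the probe sets of each gene averaged, the median was -0.037. Without N2 replicate 3, the lowest array for 3 of the genes, the median was -0.28.

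The gene cox-6B gave 3493, 3502 and 2543 in the mutant and 3211, 5828 and 2649 in N2, and its value on N2 replicate 2 lay above the other 5 arrays. For cox-5B, also known as cco-1, whose knockdown is known to lengthen life in the worm, the values were 3072, 3479 and 2546 in the mutant and 3249, 5269.7 and 2293 in N2. Both genes showed the same order of arrays at the top, with N2 replicate 2 first and mutant replicate 2 next. The log2 fold changes were -0.22 (SE 0.31, 95% confidence interval -0.96 to 0.52) and -0.18 (SE 0.31, 95% confidence interval -0.91 to 0.56), and the groups overlapped in both. In cox-4, the one subunit gene highest on mutant replicate 2, the log2 fold change was -0.037 (SE 0.20).

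The 6 assembly factor genes of complex IV were dimmer and had a median of -0.03 (3 positive, 3 negative). Mutant replicate 3 was the lowest array for all 6. The gene cox-10, for the enzyme that makes haem O on the way to the haem A of this complex, gave 95.3, 95.9 and 88.5 in the mutant and 108, 107 and 98.3 in N2. Its mutant arrays all lay below the N2 arrays, by a small margin, with a log2 fold change of -0.14 (SE 0.13, 95% confidence interval -0.45 to 0.17). All its values lay below the array medians of 153 to 168. Without detection calls it is unknown how far they lie above background. The gene cox-18, for a factor that inserts a mitochondrially made subunit into the membrane in yeast, gave 132, 119 and 90.6 in the mutant and 95.8, 103 and 100.3 in N2 and had 0.15 (SE 0.17). For cox-19, a factor in copper delivery in yeast, the values were 126, 112 and 76.5 in the mutant and 96.6, 207 and 87.2 in N2. N2 replicate 2 again stood above the rest in cox-19, and its log2 fold change turned from -0.21 to 0.14 without that array.

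Complex V, the ATP synthase, was represented by 9 genes with a median of 0.15 (6 positive, 3 negative). Mutant replicate 2 held the highest value of 6 of the 9 genes. Without it the median was -0.064, without mutant replicate 3 it was 0.37, and with both replicates numbered 2 left out -0.15. The catalytic beta subunit gene atp-2 gave 9297, 11476 and 7757 in the mutant and 10246, 5109 and 8857 in N2. N2 replicate 2 was the lowest of the 6 arrays and the others overlapped, with a log2 fold change of 0.28 (SE 0.29, 95% confidence interval -0.42 to 0.97). It was -0.021 without N2 replicate 2.

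The stalk subunit gene atp-3, homologous to the mammalian subunit that confers oligomycin sensitivity, gave 1061, 2078 and 1236 in the mutant and 1316, 1135 and 952 in N2. Mutant replicate 2 stood above the other 5 arrays, and the log2 fold change came to 0.31 (SE 0.27, 95% confidence interval -0.34 to 0.96). The alpha subunit gene atp-1 showed the same 2 extremes as atp-2, with 5379.7 on mutant replicate 2 and 2534 on N2 replicate 2. Its log2 fold change was 0.15 (SE 0.30). The genes atp-4 and atp-5 had -0.056 (SE 0.19) and -0.022 (SE 0.15).

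**Figure D4:**
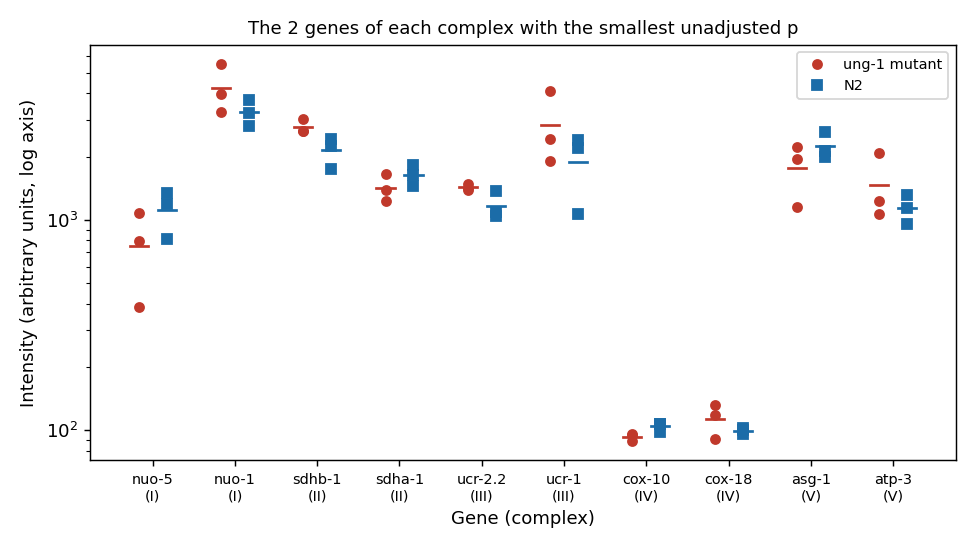
Intensity in arbitrary units (log axis) of the 2 genes of each complex with the smallest unadjusted p, with 1 point per array and lines at the means of 3 arrays, for the mutant (red circles) and N2 (blue squares). The groups are apart only in sdhb-1, ucr-2.2 and cox-10, and heights cannot be compared between genes because each probe set has its own response.

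Some subunits of the chain are encoded by paralogous genes, and these were compared array by array. In 5 families at least 1 gene lies on the X chromosome and 1 on an autosome, by the RefSeq gene table of assembly WBcel235. They are gas-1 and nduf-2.2 for the same core subunit of complex I, and sdha-1 and sdha-2 for the flavoprotein of complex II. The other 3 are ucr-2.1, ucr-2.2 and ucr-2.3 for a core protein of complex III, asb-2 and asb-1 for subunit b of the ATP synthase, and asg-2 and asg-1 for its subunit g. The 6 X-linked genes of these families are all the X-linked genes among the 47. Of asb-1 it is known in the worm that the germline uses it, and of gas-1 that its mutant is hypersensitive to volatile anaesthetics. The families were listed by name, but their grouping by chromosome was made after the values were seen and is a description with no test.

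The autosomal genes were lowest on mutant replicate 3 in 5 of 5 cases, and the X-linked genes in 0 of 6. Over all genes of the array, 30.9% of autosomal and 16.4% of X-linked genes were lowest there. The gene nduf-2.2 gave 2401, 3887 and 1326 in the mutant and 2826, 3093 and 3453 in N2, and gas-1 gave 1259.6, 2507 and 1312 in the mutant and 1559, 1674 and 1161 in N2. Mutant replicate 3 was the lowest array by a wide gap for the autosomal gene and lay in the middle of the arrays for the X-linked one. For sdha-2 the values were 3613, 2167 and 1085 in the mutant and 2022, 1849 and 2936 in N2, and for sdha-1 they were 1231, 1647 and 1387 in the mutant and 1829, 1639 and 1457 in N2. The autosomal gene spanned a wide range with mutant replicates 1 and 3 at its ends, while the X-linked gene varied little.

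In the ATP synthase, asb-1 gave 2069, 2172 and 867 in the mutant and 1415, 1603 and 1611 in N2, with mutant replicate 3 below the rest. Its X-linked paralog asb-2 gave 479.5, 1538 and 715 in the mutant and 725, 588 and 481 in N2, with mutant replicate 2 above the rest. The same contrast was found in asg-1, with 2219, 1950.4 and 1153 in the mutant and 2118, 2611 and 1995 in N2, and in asg-2, with 1699, 2588 and 1777 in the mutant and 1869, 2006 and 1132 in N2. The low array was N2 replicate 3 in asg-2 and mutant replicate 3 in asg-1. In complex III, ucr-2.3 gave 2952, 2477 and 1411 in the mutant and 2152, 2029 and 2976 in N2 and was lowest on mutant replicate 3. Its X-linked paralog ucr-2.1 gave 984, 3232 and 1551 in the mutant and 1410.0, 1665 and 926 in N2, highest on mutant replicate 2. The other X-linked paralog, ucr-2.2, gave 1424, 1382 and 1480.2 in the mutant and 1374, 1087 and 1044 in N2, with all mutant values above all N2 values by a margin of 1382 against 1374.

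Each gene was set against its own mean over the 6 arrays, and the autosomal deviation was subtracted from the X-linked one in the 6 pairs, in which ucr-2.3 is used for both of its paralogs. On mutant replicate 3 this difference lay between 0.74 and 0.88 on the log2 scale, above 0 in 6 of 6 pairs. On mutant replicate 1 and N2 replicate 3 it was below 0 in 6 of 6 pairs, with medians of -0.59 and -0.69. The medians were 0.35 on mutant replicate 2, 0.081 on N2 replicate 1 and -0.077 on N2 replicate 2. The contrast between the paralogs thus varied within each genotype.

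Between the genotypes, the X-linked genes had a median log2 fold change of 0.29 (5 of 6 positive) and the autosomal paralogs one of -0.12 (4 of 5 negative), with no gene past the threshold. The fold changes of the X-linked genes were 0.15 (SE 0.30) for gas-1, -0.21 (SE 0.17) for sdha-1, 0.39 (SE 0.44) for ucr-2.1, 0.30 (SE 0.16) for ucr-2.2, 0.45 (SE 0.41) for asb-2 and 0.29 (SE 0.28) for asg-2. Those of the autosomal paralogs were -0.43 (SE 0.37) for nduf-2.2, -0.12 (SE 0.43) for sdha-2, -0.11 (SE 0.30) for ucr-2.3, 0.032 (SE 0.35) for asb-1 and -0.38 (SE 0.27) for asg-1. The X-linked median was -0.039 without mutant replicate 2 and 0.093 without N2 replicate 3. The autosomal median was 0.20 without mutant replicate 3 and 0.059 without N2 replicate 3. Both signs therefore depended on single arrays.

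Germline markers were low on the same array as the autosomal paralogs. The sperm and intestine markers were low there too. All 14 germline and oocyte markers listed, among them oma-1, glh-1 and pgl-1, were measured, none at 0, and 12 of the 14 were lowest on mutant replicate 3. Their median deviations on mutant replicates 1, 2 and 3 were 0.34, 0.097 and -0.56, and on those of N2 they were 0.035, -0.21 and 0.34. The arrays with high germline markers, mutant replicate 1 and N2 replicate 3, were those on which the X-linked paralogs stood low against the autosomal ones. The other N2 arrays and mutant replicate 2 did not show such an inverse order. On mutant replicate 2 the germline median was 0.097 and the median pair difference 0.35, and on N2 replicate 1 they were 0.035 and 0.081. On N2 replicate 2 both were negative, at -0.21 and -0.077. Sperm markers had a median deviation of -0.87 on mutant replicate 3, with 20 of 27 lowest there. Most of the sperm markers belong to the msp family and may not vary independently. Intestine markers had a median deviation of -0.28 on mutant replicate 3, with 4 of 8 lowest there. Neuron and body wall muscle markers went the other way on that array, at 0.35 and 0.23, with 0 of 8 lowest there in each list. Epidermis and cuticle markers stood at 0.027. The summed intensity of the germline and oocyte markers ran from 35525 to 57659 in the mutant and from 44949 to 63655 in N2. The part of these tissues in the paralog pattern was not tested. Over all genes of the array, the median deviation on mutant replicate 3 was 0.044 for 2351 X-linked genes and -0.083 for 14717 autosomal genes.

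**Figure D5:**
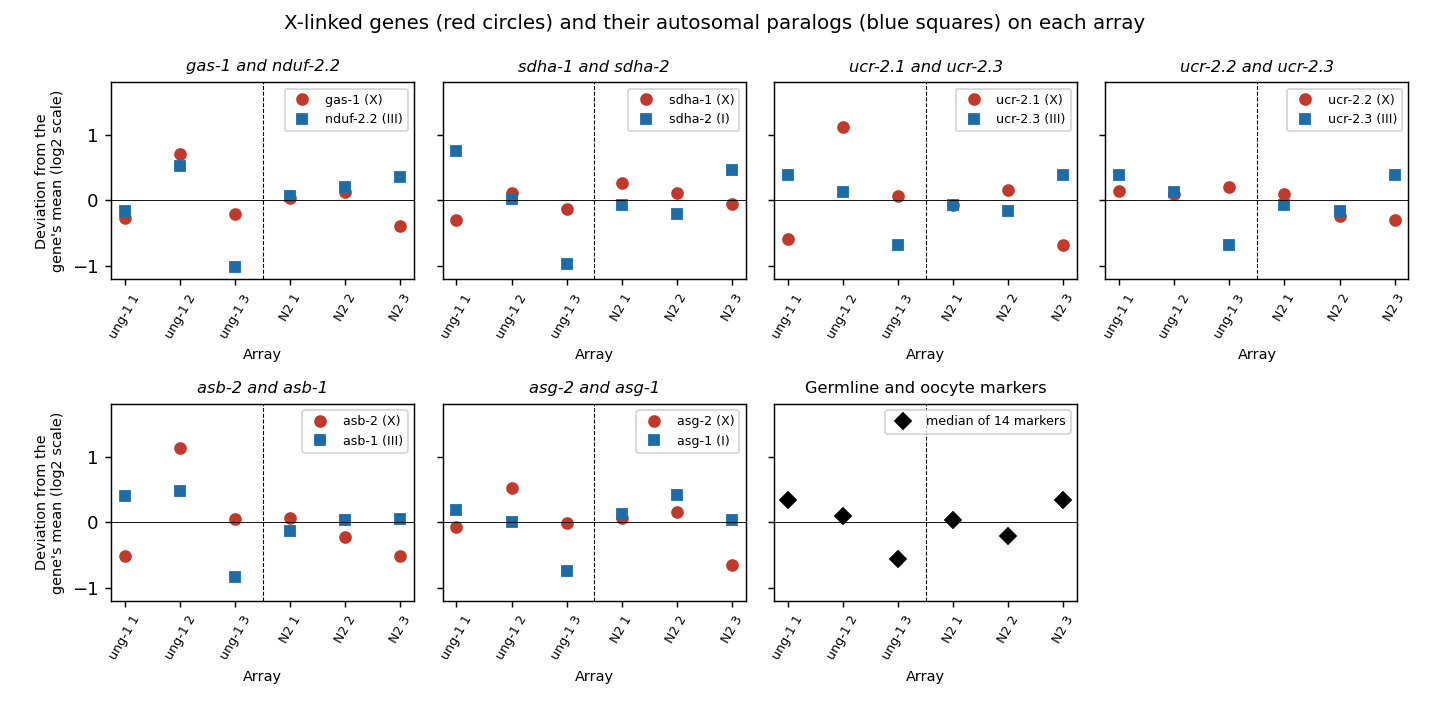
Deviation of each gene from its own mean over the 6 arrays (vertical axis, log2 scale) on each array (horizontal axis), for X-linked genes (red circles) and their autosomal paralogs (blue squares), with the median of 14 germline and oocyte markers (black diamonds) in the last panel. The blue squares and the markers are low on mutant replicate 3, where the red circles stay near 0.

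Markers of the other tissues also varied between arrays of one genotype, and none was listed at 0. Summed body wall muscle markers (8 of 8 measured) ran from 8727 to 18979.8 in the mutant, the highest on mutant replicate 2, and from 10889 to 18702 in N2. Sperm markers (27 genes) ran from 25274 to 75836 and from 27052 to 62295. Intestine markers (8 of 8) ran from 33103 to 59312 and from 48990.2 to 55869.5, and neuron markers (8 of 8) from 6894 to 10833 and from 8457 to 10394. Epidermis and cuticle markers (5 of 6) ran from 15249 to 20186 and from 11289 to 17001. Most of this sum came from sqt-3, with 18230.5 of the 20186 on mutant replicate 2 and 10354 of the 11289 on N2 replicate 1. Its probe set carries an identifier that marks a possible match to several transcripts. In each of these lists the summed values of the genotypes overlapped. Among single markers the groups were apart in pept-1, 1 of 8 intestine genes (12.5%). They were apart in 2 of 14 germline and oocyte genes (14.3%), beside 6.69% of all probe sets. At an unadjusted limma p of 0.05, pept-1 was higher in the mutant and 2 of 14 germline and oocyte genes were lower, beside 1.93% of all probe sets. No marker passed the threshold. The part of tissue makeup in the values of the 47 genes was not tested.

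The 65 probe sets allowed a check within genes. Of the 16 genes with several probe sets, 13 had fold changes of one sign, 9 of them positive and 4 negative. In atp-5, cox-5A and nuo-5 the probe sets differed in sign. For gas-1 the brighter probe set had 0.15 and the other 0.52. When the probe sets of each gene were averaged, the median of the 47 genes was 0.065, and 0 of 47 passed an unadjusted p of 0.05. Of the probe sets representing the 47 genes, 23 carry an identifier that marks a possible match to several transcripts.

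Genes that feed or serve the chain were examined by lists, and no member of any list passed the threshold. The 21 genes of the tricarboxylic acid cycle and pyruvate dehydrogenase, which supply NADH and succinate, had a median log2 fold change of 0.13 with 14 positive. It turned to -0.023 when mutant replicate 2 was left out and to -0.05 when N2 replicate 2 was. Among the genes ogdh-1, for the oxoglutarate dehydrogenase, gave 2715, 2986 and 3434 in the mutant and 4735, 4133 and 3523 in N2. All mutant values lay below all N2 values, with -0.43 (SE 0.17), an unadjusted limma p of 0.0422 and an adjusted p of 0.999. This was 1 of 21 genes at an unadjusted p of 0.05, beside 1.93% of all probe sets. The list was highest on mutant replicate 2 in 13 of 21 genes, at a median of 0.45, and lowest on N2 replicate 2 in 11, at -0.28.

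The 7 measured genes of ubiquinone synthesis, the electron carrier between complexes, had a median of 0.011 (5 positive), with 0.31 (SE 0.21) for coq-2. The 7 genes of adenine nucleotide exchange, uncoupling and ATPase inhibition had 0.019 (4 positive), with 0.41 (SE 0.28) for the dim carrier gene ant-1.2. Of 20 genes of mitochondrial chaperones, proteases, import and stress response, 12 were positive (median 0.12). In this list the prohibitin gene phb-1 gave 981, 765 and 742 in the mutant and 658, 597 and 614 in N2, with the groups apart and 0.39 (SE 0.16), an unadjusted limma p of 0.0452 and an adjusted p of 0.999. It was the 1 gene of 20 at an unadjusted p of 0.05, beside 1.93% of all probe sets.

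The vacuolar ATPase, a proton pump related in build to the ATP synthase that acidifies organelles, had a median of 0.20 (15 of 18 genes positive), and 3 of the 18 passed an unadjusted p of 0.05 as higher in the mutant, beside 0.687% of all probe sets in that direction. Its subunit gene vha-8 gave 908, 1263 and 1028 in the mutant and 683, 885 and 689.9 in N2, with 0.49 (SE 0.19) and a limma adjusted p of 0.999. Mutant replicate 2 held the highest value of 12 of the 18 genes. The median was 0.068 to 0.32 with single arrays left out. The 15 measured glycolysis genes, which make ATP without the respiratory chain, had a median of 0.14 (10 positive), with 0.49 (SE 0.24) for the glucose-6-phosphate isomerase gene gpi-1, which did not pass. Of the 12 genes encoded by mitochondrial DNA, 0 were found by symbol among probe sets with 1 gene name, and they were not analysed here.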

How the data were processed

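Total RNA was labelled with biotin and hybridised to Affymetrix arrays, per the labels' protocols. The deposited table holds 1 linear intensity per probe set and array. The probe summary, background correction and scaling were not given in the sources used here. No detection calls were used, so it is unknown how far dim probe sets lie above background. Of all deposited cells, 1.003% were whole numbers equal to spreadsheet dates and were turned back into small intensities (day.month or month.year). The 65 probe sets of the 47 genes held 0 such cells.

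The 77 control probe sets were left out, and log2(intensity + 16) was tested for all other probe sets with limma 3.58.1 in R 4.3.3 (lmFit, eBayes, two-sided), with no further normalization and no filter. The offset understates the change of dim probe sets. Symbols came from the platform annotation, and all 47 genes matched RefSeq genes of assembly WBcel235. The number of arrays limits precision, and 3 against 3 arrays allow no exact permutation p below 0.1. The fit was also run on simulated arrays with independent noise for each probe set and no shift shared by an array. That setting is unlike these data, so the run is not used as support for the results. Tables and figures used Python 3.11.15, pandas 2.3.3 and matplotlib 3.10.9.

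The genes, the 7 lists of related genes and the 6 marker lists were chosen with earlier results of these data known. Genes named with values were the 5 of each complex with the smallest p, genes fixed for their role, the paralogs and the gene of smallest p in each related list. Further genes given as examples were nuo-2, lpd-5, nduf-5, nduf-6, nduf-9, cox-4, cox-5A, cox-7C, atp-1, atp-4, atp-5 and the markers pept-1 and sqt-3. They were chosen after their values were seen, as was the grouping by chromosome. Samples were grouped by their titles. Alternatives were other treatments of date cells, offsets, normalizations, filters, probe set rules, variance models, a replicate block and each array left out. Leaving out mutant replicate 2 and N2 replicate 2 together was added after seeing the data. No sequences are shown.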

Additional observations from a re-analysis of the deposited data

How the results depend on the processing

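None of the 47 genes passed the adjusted threshold under any alternative run. The count at an unadjusted p of 0.05, 0 of 47, became 1 with an offset of 50 (sdhb-1), 1 with array weights (nuo-4), 1 with the ordinary model (cox-10) and 0 to 3 with single arrays left out, namely nduf-2.2 and nuo-5 without mutant replicate 2 and nduf-9, nuo-4 and asb-1 without mutant replicate 3. Over all probe sets 435 passed (1.93%), and 1554 with array weights (6.89%), 169 with both replicates numbered 2 left out, and 232 to 894 with single arrays left out (3.69% without mutant replicate 3 and 1.03% without mutant replicate 2). Of the probe sets left without the dimmest 33.3%, 192 passed (1.28%), and of the genes with averaged probe sets 275 (1.61%). The labels do not say whether replicates of the same number were handled together. Correlations of within-group deviations over all probe sets were -0.187, 0.0899 and 0.104 between mutant and N2 replicates 1, 2 and 3. Between replicates of different numbers they ran from -0.209 to 0.114. With 3 arrays a group these values cannot decide on a pairing. The median of the 47 genes was highest on replicate 2 and lowest on replicate 3 in both genotypes. With a replicate block, 1 of 47 genes, nuo-5, passed an unadjusted p of 0.05, beside 1.43% of all probe sets, and no call at the adjusted threshold changed.

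With single arrays left out, the median was -0.027 to 0.15 for complex I and -0.02 to 0.23 for complex III. The complex II median was -0.059 on probe sets whose identifier marks a match to 1 transcript, where 2 genes remained, and 0.0086 to 0.22 with single arrays left out. With array weights the median was 0.19 for ubiquinone synthesis and 0.20 for nucleotide exchange. For mitochondrial chaperones it was 0.041 to 0.28 with single arrays left out. With both replicates numbered 2 left out, the median was -0.15 for complex V, -0.28 for the tricarboxylic acid cycle and -0.056 for glycolysis. The ung-1 log2 fold change passed the threshold at -2.01 with values as deposited and with an intensity trend, and at -1.93 with array weights. Leaving out that pair of arrays turned signs, with -0.17 for asb-1, -0.013 for asb-2, -0.17 for atp-2, 0.087 for cox-19, 0.035 for cox-5B, 0.032 for cox-6B, -0.027 for cyc-1, -0.065 for gas-1, -0.072 for isp-1 and -0.085 for ucr-1. With array weights the turned values were 0.081 for cox-19, 0.028 for cox-5B, 0.031 for cox-6B, 0.0073 for sdha-2 and 0.035 for ucr-2.3, and with quantile normalization -0.0049 for isp-1. With single arrays left out, the genes whose sign turned ran over -0.20 to 0.46 for asb-1, -0.011 to 0.81 for asb-2, -0.021 to 0.48 for atp-2, -0.41 to 0.14 for cox-19, -0.46 to 0.14 for cox-5B, -0.46 to 0.11 for cox-6B, -0.17 to 0.23 for cyc-1, -0.18 to 0.22 for cyc-2.1, -0.17 to 0.32 for gas-1, -0.026 to 0.11 for isp-1, -0.018 to 0.19 for mev-1, -0.53 to 0.33 for sdha-2, -0.068 to 0.78 for ucr-2.1 and -0.33 to 0.20 for ucr-2.3. The causes were not tested beyond the arrays left out.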
